A study of Mus musculus with 6 samples.

Results

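The Zfp-named zinc finger genes are the mouse genes whose symbol is Zfp followed by a number, most of which encode DNA-binding proteins. The members were selected on symbol, on being protein-coding and on a mean of at least 50 over the 6 libraries in the authors' deposited normalized signal. Zfp36, Zfp36l1 and Zfp36l2, which encode RNA-binding proteins of another class, were left out, and AI987944 was added by name. The choice gave 211 members of 332 candidates, out of 16111 genes with an identifier, of which 12405 were protein-coding. At the edge of the choice, Zfp772, Zfp455 and Zfp446 had means of 53.8, 52.6 and 50.5, and Zfp827, Zfp661 and Zfp518b fell just outside with 49.9, 49.9 and 49.8. The choice used the mean over all libraries and not the difference between genotypes. AI987944 is the exception, since a gene added by name may have been picked for its difference, so its values are given as a description and the counts are also given without it.

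The study compared macrophages from fetal livers of C57BL/6 RCC mice that were either wild type (WT, 3 cultures) or AhRR-/- (labelled Ahrr, 3 cultures). Ahrr encodes the aryl hydrocarbon receptor repressor, a protein that counteracts the ligand-activated transcription factor AhR. Cells of both genotypes were taken from fetuses at E13.5 and grown for 5 weeks with 2% GM-CSF, a growth factor that sustains macrophages, and the non-adherent cells were sequenced as poly(A) RNA with single reads of 75 bp. The labels number 1 mouse for each culture, so all values describe cells after long culture, and the p-values measure the spread between these 3 cultures per genotype; how the allele was made is not given in the sources used here.

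A C2H2 zinc finger is a short fold in which a pair of cysteines and a pair of histidines hold a zinc ion, and arrays of fingers read DNA sequence base by base. Many mouse Zfp proteins also carry an N-terminal KRAB domain, which binds the corepressor Trim28 and through it the histone methyltransferase Setdb1, so that heterochromatin forms at the bound site. KRAB zinc finger genes lie in clusters of related copies, and several are known for silencing retroelements or for keeping imprinted genes methylated.

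The coding stretches that match these domains are shown for members that the results turn on, to let the shared residues be seen. The reference coding sequences are from GENCODE vM21 (GRCm38), read 5′ to 3′ on the coding strand. The first set is the KRAB match in 3 genes that were higher and 2 genes that were lower in the Ahrr cultures, with the codons of the pattern's fixed positions in capitals.
AI987944: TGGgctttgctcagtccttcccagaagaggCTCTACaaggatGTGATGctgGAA
Zfp568: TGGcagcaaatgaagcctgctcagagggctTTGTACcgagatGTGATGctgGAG
Zfp719: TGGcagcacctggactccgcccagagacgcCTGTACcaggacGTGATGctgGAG
Zfp949: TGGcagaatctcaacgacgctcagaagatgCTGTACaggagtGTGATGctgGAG
Zfp688: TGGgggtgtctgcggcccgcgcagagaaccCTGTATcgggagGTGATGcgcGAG

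Between any pair of these 5 stretches of 54 bases, 32 to 39 bases were the same, and likeness did not follow the side of the comparison. Zfp568 shared 39 bases with Zfp719, which rose with it, and 37 with Zfp949, which fell. The second set is the first finger match of 2 KRAB genes and of Zfp467, which has none, with the codons of the zinc-binding cysteines and histidines in capitals.
AI987944: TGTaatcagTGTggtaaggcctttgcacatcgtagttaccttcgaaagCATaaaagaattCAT
Zfp568: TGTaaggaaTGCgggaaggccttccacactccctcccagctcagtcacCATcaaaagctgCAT
Zfp467: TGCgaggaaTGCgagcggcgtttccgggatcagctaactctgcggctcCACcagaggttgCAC

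By these patterns 88 members had a KRAB match and 123 had none. A looser KRAB pattern matched 100 members, among them Zfp445, so the lack of a match does not show that a gene lacks the domain. The median member had 10 finger matches and the most were 36, in Zfp142. Zfp839, Zfp330, Zfp503 and Zfp703 had 0 matches to the finger pattern used, which does not show that they lack a zinc-binding fold.

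Some measures of the libraries bear on every result below. Total counts ran from 3556106 in Ahrr replicate 1 to 41668336 in Ahrr replicate 2. WT replicate 2 stood apart in the level of CT010467.1, at 52793 CPM (counts per 1000000 counts of the library) against 76.5 to 679 in the other 5 libraries. Ahrr itself, the check of the labels, was at 4.60, 4.29 and 5.32 CPM in WT and 2.25, 2.57 and 1.21 CPM in the Ahrr cultures, lower in each but not at 0. All 11 macrophage markers were in the table, and the erythroid, hepatocyte, neutrophil, dendritic and megakaryocyte lists had 1 marker each in the table, summing to under 6 CPM in every library. The stromal and endothelial list had 2 markers, under 1 CPM in sum, and the mast cell, basophil and lymphoid lists had 0. Hemoglobin genes, Alb, Elane and Mpo were among the markers not listed in the table of genes with identifiers, which holds genes with a total of at least 10 counts. The macrophage list summed to 21760 to 27438 CPM in WT and 16024 to 22979 in Ahrr cultures, and 5 proliferation markers summed to 54.3 to 109 CPM and 106 to 174 CPM. Most of the macrophage sum was Lyz2, at 19710, 17420 and 22740 CPM in WT and 19170, 12440 and 13950 CPM in the Ahrr cultures. Itgax was higher (log2 fold change 1.70, edgeR adjusted p = 0.000696). Csf1r was lower (log2 fold change -0.65, edgeR adjusted p = 0.0304). No other macrophage marker passed, and apart from Siglecf (0.39) their log2 fold changes were negative. Whether these differences have a part in the values of the zinc finger genes was not tested. In bulk RNA, fewer cells of a type and less RNA per cell cannot be told apart.

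The Zfp-named genes as a group had a median change near 0 between the genotypes, while single members rose by up to 2.82-fold or fell to 0.524 of their WT level. Of 211 members, 26 passed an edgeR adjusted p of 0.05 (12.3%), 17 higher and 9 lower in the Ahrr cultures, and 185 did not pass. Over all 11408 tested genes 19.6% passed, 9.62% higher and 9.95% lower, and over protein-coding genes 20.1%. Without AI987944 the members' count was 25 of 210 (11.9%). At an unadjusted p under 0.05 there were 62 members, against 35.8% of all tested genes. The members' median log2 fold change was 0.03, against 0.01 for all tested genes.

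The spread of the fold changes was described in the same way. The members' log2 fold changes had an SD of 0.32, against 0.53 over all tested genes, and the interquartile ranges were 0.41 and 0.45. A change of at least 1 on the log2 scale in either direction was seen in 2 members (0.948%), AI987944 and Zfp568, against 5.08% of all tested genes. The median standard error was 0.14 for the members and 0.13 for all tested genes. The members were kept by a minimum level that the other tested genes did not have to meet, and 5 of 89 tested Zfp-named genes below that level (5.62%) had a change of at least 1. The largest of these was -4.06, in Zfp429, so the range and spread given here hold only above the cutoff. The difference between the list and the other genes was not itself tested.

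**Figure D1:**
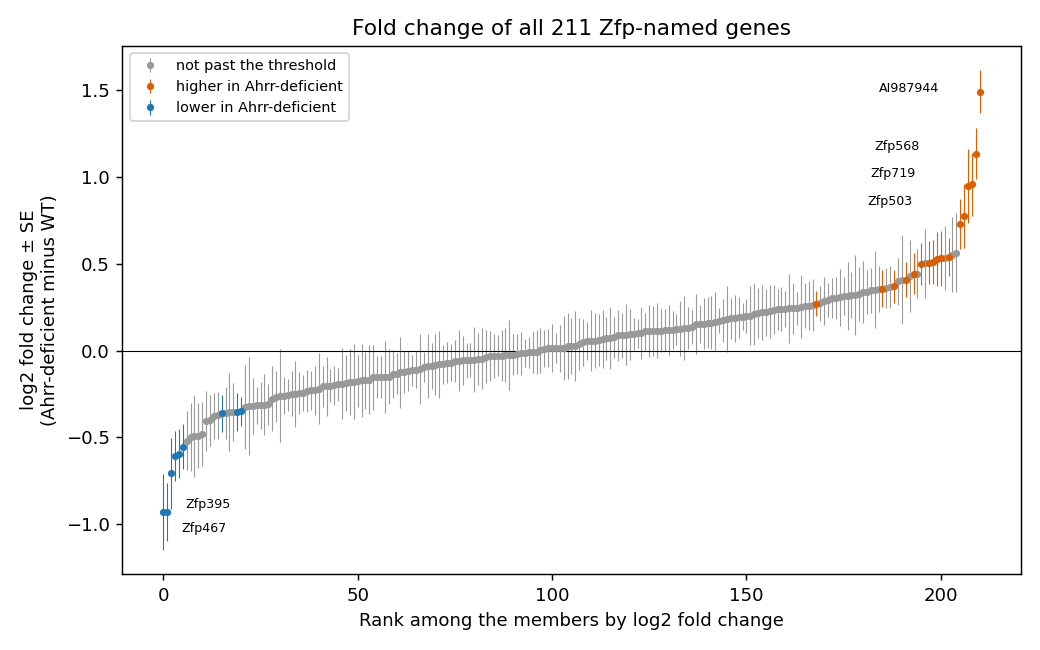
Log2 fold change (Ahrr-deficient minus WT, edgeR) with its standard error for all 211 members, ranked on the x axis, with genes past the adjusted p threshold in colour. Most members sit within 0.5 of 0, and AI987944 and Zfp568 are the 2 members above 1.

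The counts depended on which libraries were in the fit. Without Ahrr replicate 1, the shallowest library, 40 members passed (19%) against 32.6% of all tested genes. Without Ahrr replicate 2, the deepest, 6 passed (2.84%) against 8.31%, and without Ahrr replicate 3, 10 passed (4.74%) against 10.3%. Without WT replicate 1, 6 members passed against 6.07% of all genes, without WT replicate 2 again 6 against 8.15%, and without WT replicate 3, 10 against 9.35%. With both WT replicate 2 and Ahrr replicate 1 left out, a fit chosen after seeing the data, 36 members passed (17.1%) against 25.6%. The members' share was below that of all tested genes in the fit with 6 libraries and in each of these 7. With an offset for GC content in each library 18 members passed, 10 higher and 8 lower, and 13 of the 26 calls were among them (50%). The 13 calls that this offset ended were Zfp131, Zfp143, Zfp809, Zfp810, Zfp52, Zfp930, Zfp948, Zfp800, Zfp467, Zfp579, Zfp688, Zfp512b and Zfp710, with the same direction of change.

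**Figure D2:**
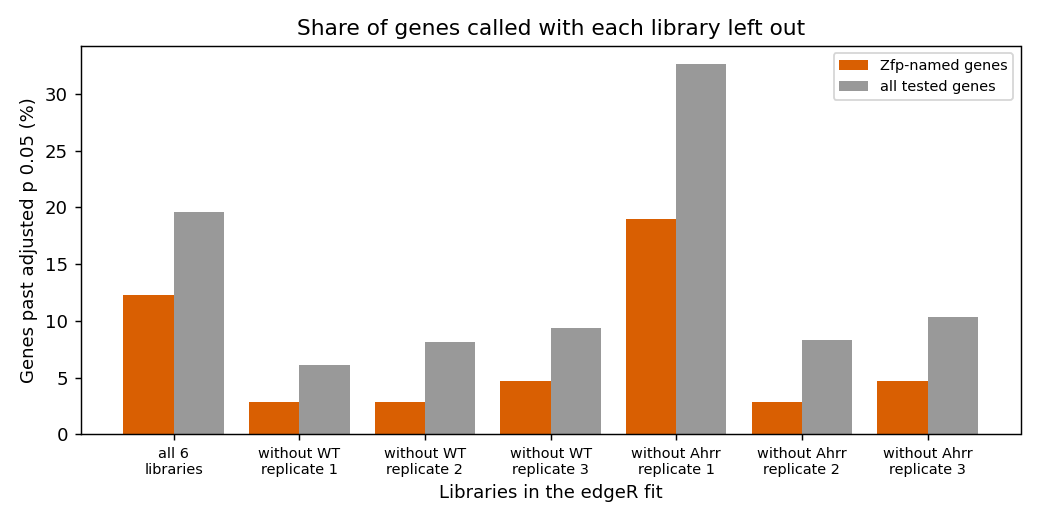
Percentage of genes past an edgeR adjusted p of 0.05 (y axis) among the Zfp-named genes (orange) and all tested genes (grey), with all 6 libraries and with each library left out (x axis). The orange bar is the lower one in each fit, and both are highest without Ahrr replicate 1, at 19% and 32.6%.

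Among the genes higher in the Ahrr cultures, KRAB zinc finger genes of chromosome 7 stood at the top. AI987944 (chr7:41372923-41393379, mm10) encodes a KRAB zinc finger protein. It was at 37.1, 25.1 and 34.8 CPM in WT and 84.4, 108 and 95.3 CPM in the Ahrr cultures. The groups were far from overlapping, and the fitted log2 fold change was 1.49 ± 0.12 (SE). Of the 75-base words in its longest transcript 9.82% also occurred in transcripts of other genes, so reads could not be assigned to 1 gene in those stretches. The gene that shared the most of these words was AW146154, a neighbouring KRAB gene that was higher too (log2 fold change 0.87, edgeR adjusted p = 0.0128).

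Zfp568 (chr7:29983955-30028282) encodes the KRAB protein that represses a placental transcript of Igf2 and is needed for gastrulation. Its level was 49.3, 47.8 and 37.6 CPM in WT and 86.1, 113 and 112 CPM in the Ahrr cultures. All 3 Ahrr values lay above the WT values, with a log2 fold change of 1.14 ± 0.15 (SE) and an edgeR adjusted p of 0.00257. Zfp719 (chr7:43579610-43593235), with 13 finger matches, was at 5.79, 5.40 and 4.06 CPM in WT and 12.1, 10.5 and 10.0 CPM in the Ahrr cultures. It is a gene of low level that nonetheless separated the groups (log2 fold change 0.96 ± 0.18, edgeR adjusted p = 0.00892). Leaving AI987944 aside, 3 members were past the threshold in all 17 alternative fits: Zfp568, Zfp719 and, among the falling genes, Zfp395.

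Zfp703 and Zfp503 encode the paired NET-family corepressors, which act in development. Zfp703 (chr8:26977325-26981461) had by far the highest level for its length among the members. Its values were 284, 185 and 190 CPM in WT and 313, 399 and 475 CPM in the Ahrr cultures. WT replicate 1 came close to the lowest Ahrr culture, without overlap, and the fitted change was 0.77 ± 0.18 on the log2 scale (SE, edgeR adjusted p = 0.0213). This call was lost without WT replicate 2 (adjusted p = 0.0813 in edgeR), WT replicate 3 (0.0758), Ahrr replicate 2 (0.0602) or Ahrr replicate 3 (0.078). In its longest transcript 10.2% of words were shared with other genes, the most with Gm45371, which overlaps it on the opposite strand.

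Zfp503 (chr14:21983959-21989601) was at 6.29, 5.08 and 8.83 CPM in WT and 10.7, 16.6 and 11.3 CPM in the Ahrr cultures. Ahrr replicate 2 was the highest of the 6, and the fitted change was 0.95 ± 0.21 on the log2 scale (SE, edgeR adjusted p = 0.0175). The edgeR adjusted p was 0.0903 without Ahrr replicate 2, 0.0996 without WT replicate 1 and 0.0649 without WT replicate 2.

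Zfp971 is a KRAB gene of chromosome 2 that shares 21.3% of its words with other genes, the most with Gm14288, so its counts are uncertain. It was at 25.4, 21.3 and 31.7 CPM in WT and 54.3, 41.0 and 43.5 CPM in the Ahrr cultures (log2 fold change 0.73 ± 0.14, edgeR adjusted p = 0.0107, and 0.059 without WT replicate 1). The groups did not overlap, and Ahrr replicate 1 was the highest library.

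Of 9 members listed as immune signalling and promoter factors, 3 were higher (33.3%, against 19.6% of all tested genes), 0 lower and 6 did not pass. This list and the other gene lists below were chosen with earlier results of these data known, so their shares are descriptions only. Zfp131, a factor with a BTB domain, was at 25.7, 21.7 and 23.5 CPM in WT and 33.5, 40.8 and 33.8 CPM in the Ahrr cultures. The groups were clearly apart (log2 fold change 0.54 ± 0.11, edgeR adjusted p = 0.0115), and this call was kept in 14 of 17 alternatives. It held in the 6 fits that left out 1 library and was lost with the GC offset (edgeR adjusted p = 0.0529), with that offset and the replicate block (0.115) and in thinned counts (0.0642). Zfp143, which binds and activates many promoters, was at 14.5, 14.9 and 16.1 CPM in WT and 18.3, 21.7 and 23.5 CPM in the Ahrr cultures (log2 fold change 0.44 ± 0.12, edgeR adjusted p = 0.0309). Zfp91, a ubiquitin ligase of the non-canonical NF-kB pathway, was at 139, 131 and 137 CPM in WT and 174, 173 and 170 CPM in the Ahrr cultures. It was the smallest rise that passed, and its replicates were close together (log2 fold change 0.27 ± 0.07, edgeR adjusted p = 0.0309). For both Zfp143 and Zfp91 only the fit without Ahrr replicate 1 kept the call among the 6 that left out 1 library, with edgeR adjusted p up to 0.167 and 0.146. The 6 others (Zfp64, Zfp281, Zfp148, Zfp263, Zfp335 and Zfp384) had log2 fold changes from -0.20 to 0.10. Zfp281, for example, was at 30.0, 29.7 and 33.6 CPM in WT and 29.0, 29.6 and 27.0 CPM in the Ahrr cultures.

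Of 9 genes listed for retroelement and imprint control, 5 were members, and 2 of these passed, both higher (40% of only 5 genes, against 19.6% of all tested genes). Besides Zfp568 this was Zfp809, the KRAB protein that recognises the primer binding site of retroviruses in stem cells. It was at 15.4, 13.8 and 19.2 CPM in WT and 20.8, 25.6 and 23.7 CPM in the Ahrr cultures (log2 fold change 0.50 ± 0.12, edgeR adjusted p = 0.0228). The groups were narrowly apart, and the call was kept in 2 of the 6 fits without 1 library, with edgeR adjusted p up to 0.132 in the others. Zfp445, which protects methylated imprints, was at 144, 135 and 144 CPM in WT and 185, 153 and 145 CPM in the Ahrr cultures and did not pass (log2 fold change 0.11 ± 0.11, edgeR adjusted p = 0.483). Zfp932 and Zfp961 had log2 fold changes of 0.35 ± 0.22 and -0.18 ± 0.19 and did not pass.

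Of 9 listed genes of RNA handling and translation, 0 passed the edgeR adjusted threshold, against 19.6% of all tested genes. An unadjusted edgeR p under 0.05 was seen in 2 of them, against 35.8% of all tested genes. Zfp207, a spindle and splicing factor, was at 146, 137 and 176 CPM in WT and 203, 188 and 179 CPM in the Ahrr cultures (log2 fold change 0.24 ± 0.09, edgeR adjusted p = 0.0978). Zfp106, an RNA-binding protein, was at 222, 199 and 223 CPM in WT and 265, 254 and 257 CPM in the Ahrr cultures (log2 fold change 0.19 ± 0.08, edgeR adjusted p = 0.108). In both the groups did not overlap although the test was missed. Zfp598, the ubiquitin ligase that marks collided ribosomes, was at 48.1, 39.2 and 44.0 CPM in WT and 36.3, 51.7 and 47.3 CPM in the Ahrr cultures, with full overlap (log2 fold change -0.01 ± 0.12).

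Of 9 listed developmental factors, 6 were members, with Zfp703 higher and Zfp467 lower (33.3% of only 6 genes, against 19.6% of all tested genes). Zfp608 and Zfp609, a related pair, had log2 fold changes of 0.29 ± 0.10 and 0.27 ± 0.10 with edgeR adjusted p of 0.0649 and 0.0934. Zfp217 and Zfp516 were at 0.01 ± 0.11 and -0.25 ± 0.12 and did not pass either. Over the 4 lists together 29 of 36 genes were members, and 7 of these passed (24.1%, against 19.6% of all tested genes), 6 higher and 1 lower. That count was 2 without WT replicate 2, Ahrr replicate 2 or Ahrr replicate 3, and 3 without WT replicate 1 or WT replicate 3. The share of all tested genes also fell in these fits, to between 6.07% and 10.3%. Because the lists were chosen with earlier results known, the share beside that of all tested genes is no test of the lists.

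The remaining rising members, 4 of them KRAB genes and 3 with no KRAB match, had small changes. Of the KRAB genes, Zfp930, Zfp948, Zfp810 and Zfp52 had log2 fold changes of 0.53, 0.53, 0.51 and 0.51, with edgeR adjusted p from 0.0235 to 0.045. Each lost the call in at least 4 of the 6 fits that left out 1 library, with the highest edgeR adjusted p at 0.235 for Zfp930 without Ahrr replicate 2. Zfp397, Zfp800 and Zfp142 also passed, with log2 fold changes of 0.41, 0.37 and 0.36, and are named here after their values were seen. They have no KRAB match, and their calls were kept in 2, 1 and 1 of the 6 fits without 1 library, with edgeR adjusted p up to 0.134, 0.139 and 0.221, each without WT replicate 1. DESeq2 gave Zfp142 an adjusted p of 0.152. With the GC offset the log2 fold changes of Zfp397 and Zfp800 were 0.26 and 0.23. Zfp142 shares 26.4% of its words with other genes, the most with Plcd4, which overlaps it on the opposite strand.

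Among the genes lower in the Ahrr cultures, 6 of 9 had groups that did not overlap. Zfp395 (chr14:65358389-65398930), described elsewhere as hypoxia-inducible, was at 66.5, 71.0 and 64.9 CPM in WT and 48.4, 30.3 and 37.3 CPM in the Ahrr cultures. The WT cultures were tight and the Ahrr cultures spread below them (log2 fold change -0.93 ± 0.17, edgeR adjusted p = 0.0077). Zfp467 (chr6:48427697-48445825), known for steering mesenchymal cells towards fat, was at 11.99, 12.22 and 12.89 CPM in WT and 10.1, 5.30 and 7.38 CPM in the Ahrr cultures. Ahrr replicate 1 was nearest to WT (log2 fold change -0.93 ± 0.22, edgeR adjusted p = 0.0201), and of the 6 fits without 1 library the call was kept only without Ahrr replicate 1, with edgeR adjusted p between 0.0597 and 0.0772 in the other 5.

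The 4 remaining genes of this kind fell by smaller amounts. Zfp579 was at 10.7, 10.2 and 9.25 CPM in WT and 6.47, 6.98 and 7.28 CPM in the Ahrr cultures (log2 fold change -0.61 ± 0.14, edgeR adjusted p = 0.0204). Zfp949 was at 13.2, 13.0 and 15.3 CPM in WT and 9.84, 8.59 and 10.9 CPM in the Ahrr cultures (log2 fold change -0.60 ± 0.14, edgeR adjusted p = 0.0209). Both sets of 3 were apart, and Zfp949 and Zfp688 were the 2 KRAB members that fell. Zfp688 was at 16.6, 13.0 and 15.1 CPM in WT and 12.1, 9.96 and 11.3 CPM in the Ahrr cultures (log2 fold change -0.55 ± 0.13, edgeR adjusted p = 0.0202). Zfp512b was at 48.2, 45.2 and 49.0 CPM in WT and 38.5, 38.5 and 40.7 CPM in the Ahrr cultures (log2 fold change -0.35 ± 0.08, edgeR adjusted p = 0.0212). In these 4 genes the call was kept in 1 or 2 of the 6 fits without 1 library, with edgeR adjusted p up to 0.13 for Zfp688 and 0.117 for Zfp579, both without WT replicate 1. Zfp874a, Zfp652 and Zfp710 passed with overlapping groups (log2 fold changes -0.71, -0.36 and -0.35) and are named here after their values were seen.

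**Figure D3:**
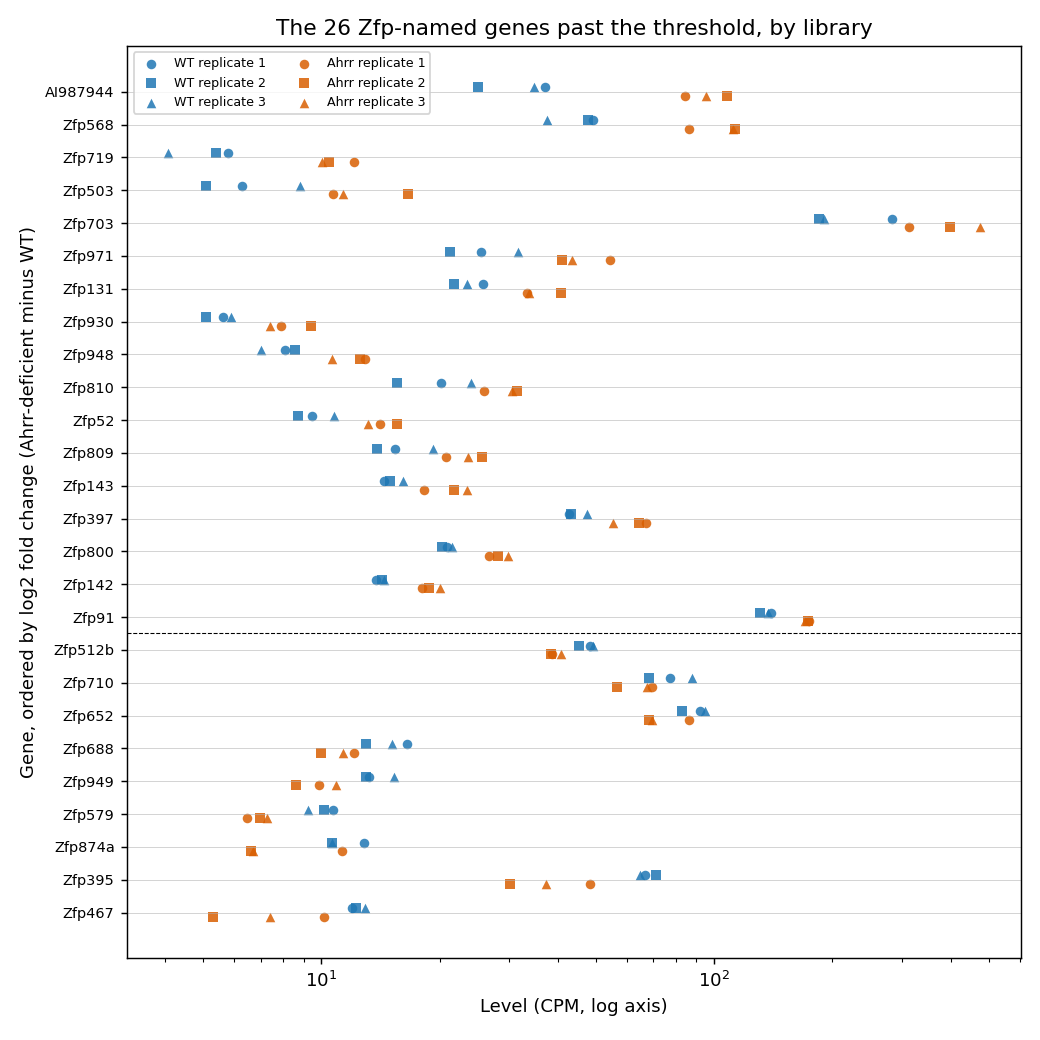
CPM in each library (x axis, log scale) of the 26 members past the threshold, ordered on the y axis by log2 fold change, with WT in blue, Ahrr-deficient in orange and a dashed line between rising and falling genes. All 17 rising genes have separate groups, and 3 of the 9 falling genes (Zfp874a, Zfp652 and Zfp710) overlap.

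Among the called genes, Ahrr replicate 1, the shallowest library, was the lowest of the 3 Ahrr cultures in 10 of the 17 that rose. It was the highest of the 3 in 6 of the 9 that fell. Its position was not counted over all tested genes, so this describes the called genes only. Over all 211 members its summed CPM was the highest of the Ahrr cultures (6434, against 6092 and 6005). Counting members whose groups did not overlap in CPM gave 57 higher and 14 lower, against 23.9% higher and 12.8% lower over all tested genes. These counts are on plain CPM, which is not corrected for the large share of CT010467.1 in WT replicate 2.

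The summed level of the 211 members was higher in every Ahrr culture on the CPM scale. It was 5439, 4998 and 5573 CPM in WT and 6434, 6092 and 6005 CPM in the Ahrr cultures, with means of 5337 ± 301 and 6177 ± 227 (SD, n = 3). No test was made of this sum. The groups did not overlap, and WT replicate 2 was the lowest. Like the overlap counts, the sums are plain CPM, not corrected for the large share of CT010467.1 in WT replicate 2. That library had the lowest TMM factor (0.904). The ratio of the Ahrr mean to the WT mean was 1.13 without Zfp703, over the 185 members that did not pass 1.11, over KRAB members 1.26 and over the other members 1.13. The KRAB sum, like that of all members, includes AI987944. That gene had means of 32.3 CPM in WT and 95.7 CPM in the Ahrr cultures, of KRAB sums of 1224 and 1539 CPM. The sum weighs highly expressed genes most and is plain CPM, while the median log2 fold change of 0.03 is from the fit scaled by TMM. The 2 are therefore not on the same scale, and the part of either in the gap was not tested. In Ahrr replicate 1 the members' median deviation from each gene's mean log2 CPM was 0.17, against 0.02 for all tested genes.

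Levels per length spread widely among the members. With CPM per kilobase of exon over all 6 libraries, Zfp703 was at 90.8, followed by Zfp385a at 29.1, Zfp207 at 25.8, Zfp106 at 22.7, and Zfp706 and Zfp445 at 20.4 each. The median member was at 3.16 and the lowest, Zfp846, at 0.437. None of Zfp385a, Zfp207, Zfp106, Zfp706 and Zfp445 passed the test between genotypes, so Zfp703 was the only one of the 6 with the highest levels that did.

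The members were split by the KRAB match. Of the 88 KRAB members 11 passed (12.5%), 9 higher and 2 lower, with a median log2 fold change of 0.07, and of the 123 others 15 passed (12.2%), 8 higher and 7 lower, with a median of -0.01. Without AI987944 the KRAB count was 10 of 87 (11.5%), and over all tested genes 19.6% passed. Whether the directions differ between the classes was not tested. With an offset for GC content the KRAB count was 7, 4 higher and 3 lower, and the median was -0.05, so the direction of the KRAB median turned, and that of the others was 11, 6 higher and 5 lower. The KRAB count also fell to 3 without WT replicate 1, 4 without WT replicate 2, 4 without Ahrr replicate 2, and 6 without WT replicate 3 or Ahrr replicate 3. The count of the others was 25 without Ahrr replicate 1, 2 without WT replicate 2 or Ahrr replicate 2, 3 without WT replicate 1, and 4 without WT replicate 3 or Ahrr replicate 3. The share of all tested genes moved too, to 6.07%, 8.15% and 9.35% without WT replicates 1, 2 and 3. Without Ahrr replicates 1, 2 and 3 it was 32.6%, 8.31% and 10.3%. With the looser KRAB pattern and all 6 libraries, 11 of 100 KRAB members and 15 of the 111 others passed. By finger number, 12 of 110 members with 10 or more fingers passed (10.9%), 10 of 72 with 4 to 9 (13.9%), 2 of 25 with 1 to 3 (8%), and 2 of 4 with 0, against 19.6% of all tested genes.

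GC content moved with the fold change across the transcriptome, and the KRAB genes lie at its low end. The median GC content of the longest protein-coding transcript was 44.1% for the members, 40.3% for KRAB members and 49.6% for the others, against 49.7% over all tested genes. Tested genes were put in 5 equal bins by GC content, and the lowest bin held 105 members, 67 of them KRAB. In that bin the members' median log2 fold change was 0.11 and that of the 2174 other genes was 0.14. There 10 members passed (9.52%), against 20.3% of the other genes. In the next 3 bins the members' medians were 0.05, 0.13 and -0.05, and those of the other genes 0.09, 0.01 and -0.07. In the bin with the highest GC content the 32 members had a median of -0.15 and the other genes -0.14. The part of GC content in the members' values was not tested beyond the offset.

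**Figure D4:**
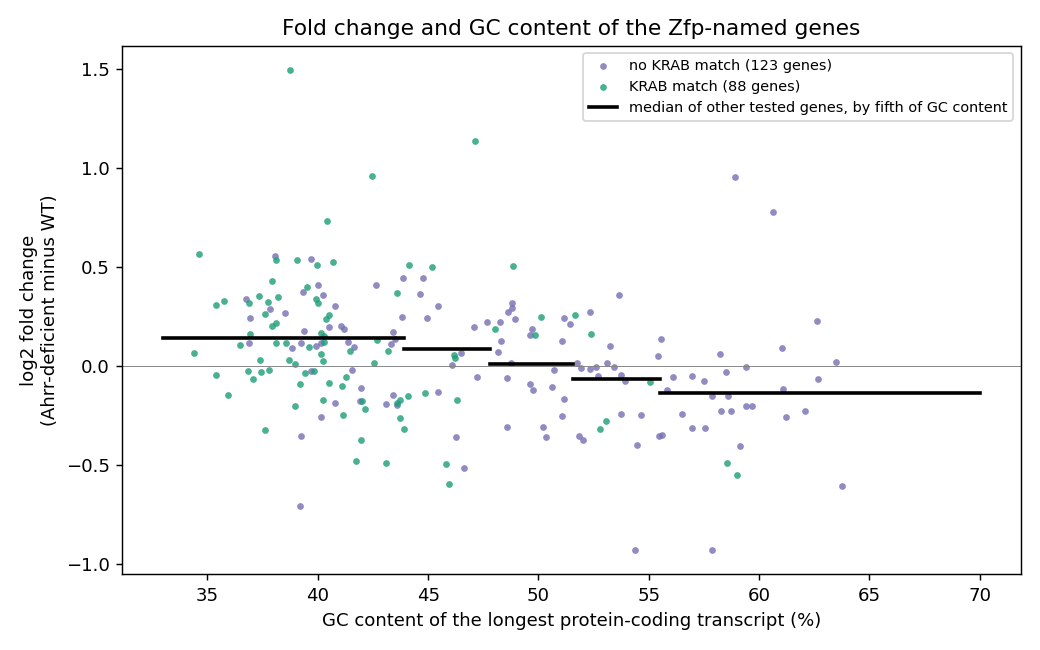
Log2 fold change (y axis, Ahrr-deficient minus WT) against GC content of the longest protein-coding transcript (x axis, %) for 88 members with a KRAB match (green) and 123 without (purple), with black lines for the median of other tested genes in each of 5 bins of GC content, drawn to the plot's edge in the outer bins. The black medians step down from 0.14 to -0.14, and the KRAB genes lie mostly below 44% GC.

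Members lie in clusters on the chromosomes, and chromosome 7 alone holds 51 and chromosome 17 holds 26. Joining members no more than 1 Mb apart into groups of at least 4 gave 15 clusters with 103 members. In the clusters 9 members passed (8.74%), against 17 of the 108 members outside (15.7%) and 19.6% of all tested genes. This difference was not tested. A total of 8 clusters held no called member. In the cluster at chr7:41372923-43593235, of 6 KRAB members, AI987944 and Zfp719 were higher, 5 log2 fold changes were positive and the median was 0.33. The cluster at chr7:29768552-30169750 had Zfp568 as its 1 called member of 7, with 6 positive log2 fold changes and a median of 0.18. In the cluster at chr17:21008903-23193252, of 16 KRAB members, Zfp52 and Zfp948 were higher, and 12 of 16 log2 fold changes were positive with a median of 0.11. The cluster at chr6:47835661-48445825, of 7 members with no KRAB match, had Zfp467 lower and 1 positive log2 fold change, with a median of -0.25. Of these members, Zfp398, Zfp746 and Zfp777 matched the looser KRAB pattern. Clusters were joined by distance alone, and their members can differ. At chr17:32765496-33631779, Zfp414 had a GC content of 58.7% and Zfp81 of 37.45%. Some neighbours share sequence, as Zfp868 and Zfp869 do, so genes of 1 cluster cannot be taken as independent observations.

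Ahrr itself lies at chr13:74211118-74292331, and 12 members lie within 10 Mb of it. Of these, 1 passed, Zfp874a (8.33%, against 19.6% of all tested genes), and their median log2 fold change was 0.07. These genes include the chromosome 13 cluster, of 11 members from chr13:67194506-67729173. The count leaves out genes that are no members. Of those, Zfp429 (6.81 Mb from Ahrr, below the cutoff on the mean) and Rsl1 (7.03 Mb, not Zfp-named) were lower. Their log2 fold changes were -4.06 and -0.88, and the other genes of this stretch were not counted.

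Related copies and overlapping genes limit how well reads can be assigned. Of the 211 members, 108 shared at least 1 word of 75 bases with another gene, and 33 shared at least 10% of their words. In these 33 genes 4 passed (12.1%), and of the 103 members with no shared word 14 passed (13.6%), against 19.6% of all tested genes. An exon on the opposite strand overlapped 51 members, and 8 of these passed (15.7%). The use of strand in the counting is not given in the sources used here.

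Genes that act with KRAB proteins were called at a share near that of all tested genes. Of 27 listed corepressor genes 25 were tested, and 4 passed (16%, against 19.6% of all tested genes), with a median log2 fold change of 0.03. Trim28, the direct partner of the KRAB domain, was at 94.1, 89.2 and 84.9 CPM in WT and 83.5, 102 and 97.9 CPM in the Ahrr cultures (log2 fold change 0.01 ± 0.10). Setdb1, which methylates histone H3 at the silenced site, had a log2 fold change of -0.18 ± 0.09 and did not pass (edgeR adjusted p = 0.182). Cbx5, encoding heterochromatin protein HP1 alpha, and Mphosph8, of the HUSH silencing complex, were higher (log2 fold changes 0.40 ± 0.10 and 0.41 ± 0.11, edgeR adjusted p = 0.0214 and 0.0332). Chd3, of the NuRD complex, and Ehmt2, a histone H3 methyltransferase, were lower (-0.31 ± 0.07 and -0.36 ± 0.09, edgeR adjusted p = 0.0176 and 0.0288). With the GC offset these 4 calls were lost, with edgeR adjusted p of 0.0865 for Cbx5, 0.0717 for Mphosph8, 0.0598 for Chd3 and 0.195 for Ehmt2, and the log2 fold changes of Chd3 and Ehmt2 were -0.20 and -0.15. The count was 0 without WT replicate 1, without WT replicate 2 and without Ahrr replicate 2, 2 without WT replicate 3 or Ahrr replicate 3, and 7 without Ahrr replicate 1. Over all tested genes the share was 32.6% without Ahrr replicate 1 and between 6.07% and 10.3% in the other fits without 1 library.

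Other zinc finger genes were counted in the same fit. Of 30 other genes with a KRAB match and at least 3 finger matches, 3 passed (10%). Of 39 Zbtb genes 6 passed (15.4%), of 17 Zscan and Zkscan genes 3 (17.6%), of 14 Zc3h genes 2 (14.3%), and of 151 other genes with at least 3 finger matches 26 (17.2%). Over all tested genes 19.6% passed. Changes of at least 1 on the log2 scale were found in 9 of those 151 genes (5.96%), against 2 of the 211 members. The difference between these lists was not tested.

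The AhR-ARNT core motif was searched in promoters of members, as the labelled gene acts in that pathway. Promoters were RefSeq windows of 300 bases (GRCm38.p6), 250 before and 50 after each start, and the motif was GCGTG or its reverse complement CACGC on the same strand, which covers both strands. A total of 176 members matched the table. The motif occurred in 40.5% of the members' 215 promoters, in 51.1% of the promoters of tested genes and in 32.4% of all promoters in the table. It occurred in 5 of 18 promoters of members that were higher and in 2 of 8 promoters of members that were lower, against 80 of 189 promoters of members that did not pass. A match is a description of sequence and was not examined for binding.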

How the data were processed

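RNA-seq of 6 mouse macrophage cultures (3 WT, 3 Ahrr) was analysed, grouped by sample title. The authors deposited raw read counts per feature for 53465 features without identifiers, and a normalized signal for 16111 genes with identifiers. Per the submitters' processing notes, CASAVA 1.8.2, fastp 0.20.0, STAR 2.7.10b, SAMtools 1.16.1, R 4.3.1 and DESeq2 1.40.2 were used with mm10; the read counter, strand setting and annotation are not given in the sources used here. Whole reads were recovered from 100% of the deposited signal values (tolerance 0.001) and equalled the raw counts. Features without identifier held 0.0232% to 0.0511% of counts. They entered no test except in the alternative with no filter on low counts, which tested 24416 features.

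Counts were tested with edgeR 4.0.16 (quasi-likelihood, TMM, filterByExpr, genotype only) in R 4.3.3, two-sided, with Benjamini-Hochberg adjustment over 11408 genes and a threshold of 0.05. All 211 members passed the filter. The SE of a log2 fold change was worked back from the test, as its absolute value over the square root of the quasi-likelihood F statistic. It is not a separate output of the fit and need not match the p-value in each gene. CPM is counts over the library total. TMM scaled the libraries by 0.904 to 1.04, with a biological coefficient of variation of 13%. A floor of 3 counts was 0.844 CPM in the shallowest library and 0.072 CPM in the deepest, for counting error only. Alternatives used RLE and upper-quartile factors, other count filters, DESeq2 1.42.0, limma-voom (limma 3.58.1), a GC offset, thinning to the smallest total, a replicate block and each library left out.

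Positions, GC content and coding sequences are from GENCODE vM21. The split by KRAB domain and finger number was planned on RefSeq proteins, to be left out where no protein table was given; translated GENCODE coding sequences were used in its place, a choice made after seeing the files. The KRAB pattern spans 18 residues with a tryptophan, 9 free residues and fixed positions after them, and a finger has cysteines 2 to 4 apart, 12 residues, and histidines 3 to 5 apart. Python 3.11.15 with pandas 2.3.3 made the tables, and the plots came from matplotlib 3.10.9. The members and gene lists were chosen with earlier results of these data known. Named genes were members past the threshold without overlap (the 12 largest rises and falls), AI987944, the role lists, Ahrr, the genes at the edge of the choice and corepressor genes past the threshold.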

Additional observations from a re-analysis of the deposited data

How the results depend on the processing

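Over the 25 called members other than AI987944, none of 425 values in 17 alternatives changed direction, and 251 were past the threshold; 3 members were past it in all 17 alternatives and 4 in all 6 fits that left out 1 library. RLE and upper-quartile factors, DESeq2, limma-voom, no filter and a mean of at least 50 counts gave 19 to 33 members, within 1.5 times of 26. Thinned to the shallowest library's total, the counts gave 10 members, 5 KRAB and 5 others, 3 genes of the role lists, 0 corepressor genes and 1166 of all genes. The GC offset gave 18 members, 13 of them among the 26, with 7 KRAB members at a median log2 fold change of -0.050, 4 genes of the role lists and 1 corepressor gene, which is not among the 4 reported. With a mean of at least 200 in the deposited signal, 14 of 88 members passed.

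Same-numbered cultures had correlations of -0.17, 0.07 and 0.13 in their deviations, and 1 of 3 correlated best with its own number, so the numbers are not shown to pair cultures. The replicate block gave 9 members, 5 KRAB and 4 others, 4 genes of the role lists, 1 corepressor gene and 1390 of all genes. The replicate block with the GC offset gave 10 members, 5 KRAB with a median of -0.025 and 5 others, 2 genes of the role lists, 1 corepressor gene and 1202 of all genes.

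Leaving out 1 library gave 6 to 40 members, 3 to 15 KRAB members, 2 to 25 others, 2 to 9 genes of the role lists, 0 to 7 corepressor genes and 694 to 3857 of all genes. Without Ahrr replicate 1 there were 40 members and in each of the other 5 fits at most 10; the cause was not tested. Removing both libraries that stand apart, added after seeing the data, gave 36 members. Limits are 3 cultures a genotype, an 11.7-fold range of depth, and reads shared between related genes.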

Other observations

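Of 121 Zfp-named candidates below the cutoff on the mean, 89 were tested. Of these 89, 5 passed the edgeR adjusted p of 0.05 (5.62%, against 19.6% of all tested genes), 1 higher and 4 lower, chosen here after their values were seen. Zfp429 (chr13:67387905-67399819, 6.81 Mb from Ahrr) was at 6.20, 4.44 and 7.01 CPM in WT and 0.562, 0.456 and 0 CPM in the Ahrr cultures, from 136, 28 and 50 counts against 2, 19 and 0. The groups lay far apart, with a fitted change of -4.06 ± 0.42 on the log2 scale (SE, edgeR adjusted p = 0.00121), larger than that of any of the 211 members. Zfp429 is a KRAB gene with 10 finger matches. It lies inside the chromosome 13 cluster of members that ranged from -0.71 to 0.55.

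The other falling genes were Zfp821, Zfp541 and Zfp354a, with log2 fold changes of -1.06, -1.55 and -1.62. Zfp599 rose by 1.27 on the log2 scale. All 4 were at under 5 CPM in every library. Zfp354a overlapped between groups, since Ahrr replicate 1 was at 2.25 CPM and the WT cultures were at 2.05, 2.06 and 1.82 CPM. Near the chromosome 13 cluster, the KRAB gene Rsl1, which is not Zfp-named, was also lower (log2 fold change -0.88 ± 0.22, edgeR adjusted p = 0.0245), at 4.79, 4.44 and 3.92 CPM in WT and 2.81, 2.81 and 1.92 CPM in the Ahrr cultures. The KRAB gene Platr25, 11.4 Mb from Ahrr, was higher (log2 fold change 1.08 ± 0.20, edgeR adjusted p = 0.00823).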
